A study of Homo sapiens with 6 samples.

Results

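The genes described here encode amino acid carriers of the cell surface: SLC1A3, SLC1A4, SLC1A5, SLC7A1, SLC7A5, SLC7A6, SLC38A1, SLC38A2, SLC38A5 and SLC6A9. These members were chosen by gene symbol and are 10 of the 78932 rows of the count table. Of them, 9 passed the filter on low values, a minimum of 10 counts in 3 or more libraries out of 6, which kept 18474 genes in all. SLC38A5 did not pass it, with 0 to 2 counts in each library.

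Cells cannot make the essential amino acids, and membrane carriers of the solute carrier families bring them in together with glutamine, glutamate and glycine. The carriers are grouped into transport systems by what they move and by the ion that drives them. Sodium-coupled systems A and ASC carry small neutral amino acids, with ASC working as an exchanger. Systems L and y+L exchange amino acids across the membrane through a light chain (SLC7A5, SLC7A6) held by the heavy chain SLC3A2. Amino acid supply is read inside the cell by the kinase GCN2 (EIF2AK4), which acts through the transcription factor ATF4, and by the mTORC1 complex on the lysosome, and genes of several carriers are known targets of ATF4 or of MYC.

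The libraries came from T24, an established human urothelial carcinoma line. Cells were transfected with a non-targeting siRNA (siNC, 3 libraries) or with siRNA against TRIM28 (siTRIM28, 3 libraries), a corepressor and SUMO ligase that the study examined as a driver of bladder cancer. Both groups therefore received a duplex and a transfection reagent, and the labels call the 6 libraries biological replicates. The libraries were treated as 1 batch, since their titles name none. Which TRIM28 siRNA was used, and for how long, is not given in the labels, so an effect of the duplex other than loss of TRIM28 cannot be told apart from that loss. The question asked of the carriers is which of them differ in mRNA level after TRIM28 silencing. In these bulk libraries fewer cells of a kind and less RNA per cell cannot be told apart.

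The libraries held 11712623 to 14018052 counts, so that 1 count was worth 0.0714 to 0.0845 CPM (counts scaled to library size by TMM). TRIM28 itself stood at 104 ± 4.09 CPM (SD, n = 3) in siNC and at 8.87 ± 0.658 CPM in siTRIM28, with no overlap. The epithelial keratin KRT8 was at 104 CPM in siNC and 114 CPM in siTRIM28 (log2 fold change 0.14, adjusted p = 0.0354) and VIM at 1102 and 1389 CPM (0.33, adjusted p = 2.56e-05). KRT7, a low keratin, was also higher (0.56, adjusted p = 0.0126), and the part of these markers in the results was not tested. KRT18 stood at 86.1 CPM in siNC and 91.2 CPM in siTRIM28. The other epithelial markers were low in siNC and siTRIM28: EPCAM at 0.397 and 0.217 CPM, KRT19 at 0.337 and 0.147, KRT5 at 0.0261 and 0.0238. Low as well, the urothelial markers GATA3, UPK2 and UPK3A summed to at most 1.23 CPM in every library, so the line carried few defining transcripts of differentiated urothelium. Of the leukocyte and endothelial markers, CD3E and CDH5 were at 0 in all libraries, and CD68 was at 348 CPM in siNC and 351 CPM in siTRIM28. PECAM1 was read with 5, 4 and 6 counts in siNC and 10, 9 and 11 in siTRIM28, without overlap. PTPRC averaged 0.153 CPM in siNC and 0.052 CPM in siTRIM28, and VWF 0.0962 and 0.113 CPM. Within each group a pair of libraries lay close: siNC replicates 1 and 2 gave a chi-square over its degrees of freedom of 1.08 and siTRIM28 replicates 2 and 3 of 1.24, against 4.54 to 7.09 for the other pairs. Each close pair still differed by more than sampling noise, and all 6 libraries were kept as separate samples.

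Of the 9 tested genes, 5 were called at an adjusted p under 0.05: SLC1A3 was higher after TRIM28 silencing, and SLC7A5, SLC38A1, SLC1A5 and SLC38A2 were lower. The same threshold called 41.8% of all tested genes (21.3% higher and 20.5% lower), and 5 of 9 is 55.6%. With only 9 genes each call moves this share widely, and no excess over the background is read from it. The 2 groups did not overlap for the same 5 genes, against 52% of all genes tested. The median log2 fold change was -0.02 over the 9 genes and 0.02 over all genes, and SLC7A5 was the only 1 of the 9 whose change was also past 0.58 on the log2 scale.

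**Figure D1:**
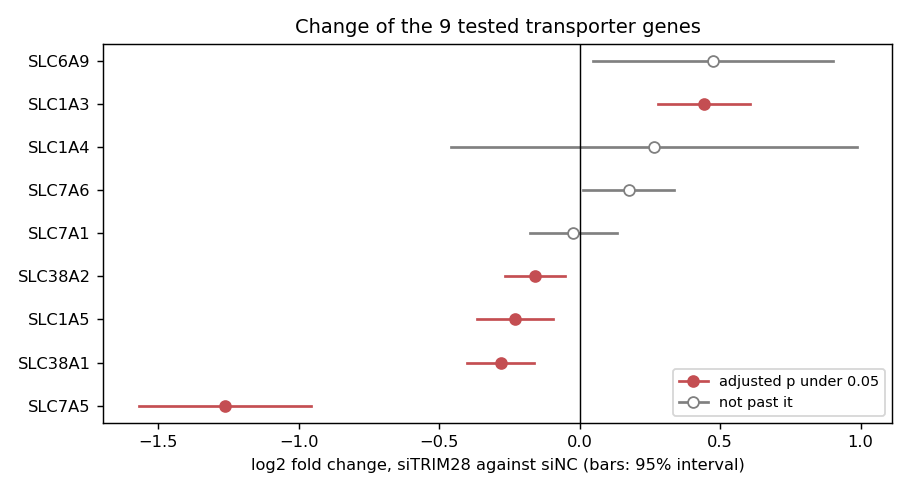
Log2 fold change of each of the 9 tested genes in siTRIM28 against siNC (x axis), with its 95% interval as a bar, filled where the adjusted p was under 0.05. SLC7A5 lies at -1.26, and the other 8 genes lie between -0.28 and 0.48.

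Levels between genes were compared per length, as RPKM (CPM per kilobase of the length given in the table). In siNC, SLC38A2 came first at 26.0 ± 0.848 RPKM (SD, n = 3), followed by SLC1A5 at 16.2 ± 0.692 and SLC38A1 at 6.51 ± 0.225. SLC7A5 held rank 4 at 4.97 ± 0.573 RPKM, ahead of SLC7A1 at 3.58 ± 0.242 and SLC7A6 at 2.62 ± 0.187. Below them were SLC1A3 at 1.29 ± 0.0542, SLC6A9 at 0.534 ± 0.0789, SLC1A4 at 0.121 ± 0.0162 and SLC38A5 at 0.0245 ± 0.00999 RPKM. No neighbours in this order overlapped between their siNC libraries. In siTRIM28 the order was the same but for SLC7A5, which held rank 6 at 2.05 ± 0.504 RPKM, behind SLC7A1 at 3.52 ± 0.150 and SLC7A6 at 2.96 ± 0.125. The place of SLC1A3 depends on the length used: the table gives it 21227 bases, against 4170 bases for its longest coding transcript in GENCODE v29, and with the latter it held rank 4 in siNC at 6.56 RPKM.

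**Figure D2:**
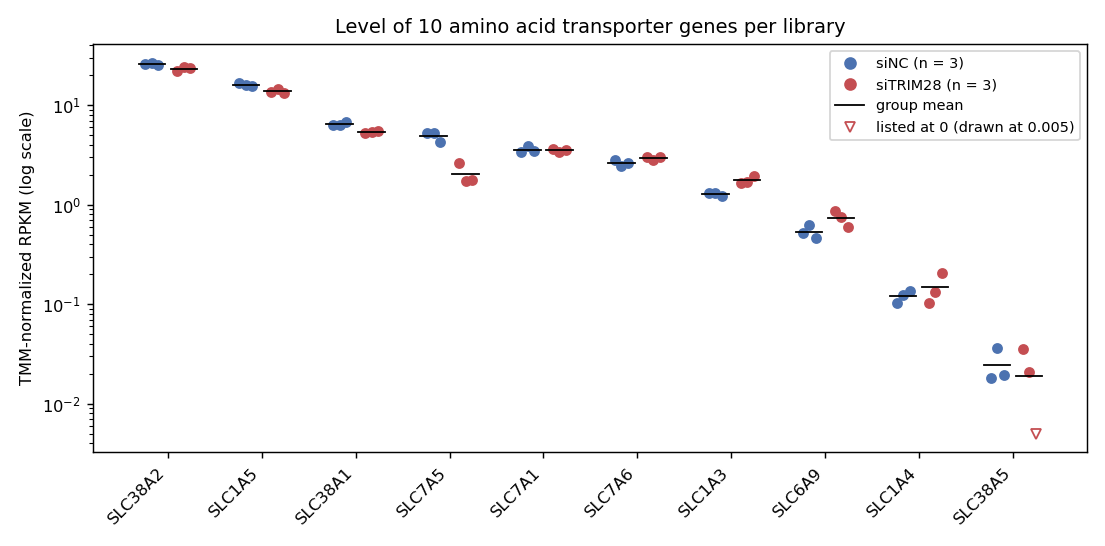
Level of each of the 10 genes in every library as RPKM on a log axis, ordered by the siNC mean, with siNC and siTRIM28 libraries as points and group means as lines. SLC38A2 and SLC1A5 lead in both groups, and the 3 siTRIM28 points of SLC7A5 lie below its 3 siNC points. SLC38A5 in siTRIM28 replicate 3 is listed at 0 and drawn as an open triangle.

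SLC7A5 (LAT1, ENSG00000103257, GRCh38 chr16:87830016-87869507, minus strand) is the system L light chain that exchanges large neutral amino acids such as leucine against glutamine. It was read with 352, 349 and 262 counts in siNC replicates 1 to 3 and with 176, 99 and 100 counts in siTRIM28 replicates 1 to 3. In CPM these were 25.3, 25.2 and 20.5 in siNC and 12.6, 8.36 and 8.45 in siTRIM28. All siTRIM28 libraries lay below all siNC libraries, with siTRIM28 replicate 1 the highest of its group and siNC replicate 3 the lowest of its own. SLC7A5 fell from 23.7 ± 2.73 to 9.79 ± 2.41 CPM (SD over 3 libraries). On the log2 scale the change was -1.26 (SE 0.140, 95% interval -1.57 to -0.95), and edgeR's quasi-likelihood fit gave a Benjamini-Hochberg adjusted p of 2.43e-05. The siTRIM28 level was 0.417 times that of siNC. The exact two-sided permutation test on the 6 log2 CPM values gave p = 0.1, the smallest that 3 against 3 can give.

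SLC7A5P2 and SLC7A5P1, by name copies of SLC7A5, could share its reads. Their lengths are 536 and 538 bases against 4771 for SLC7A5, and the sequences were not compared. SLC7A5P2 was read with 37, 48 and 28 counts in siNC and 103, 33 and 51 in siTRIM28, and its log2 fold change of 0.82 did not pass (adjusted p = 0.0557). SLC7A5P1 had 28 counts in all of siNC and 14 in all of siTRIM28 and was not tested. How the authors' counting split reads among the copies is not given in the sources used here. With the counts of both copies added to those of SLC7A5, the log2 fold change was -0.84 (SE 0.167, edgeR adjusted p = 0.00168).

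SLC7A6 (y+LAT2, ENSG00000103064, chr16:68264516-68301793, plus strand), the other light chain of SLC3A2 among the 10, exchanges cationic against neutral amino acids. It stood at 21.4, 18.6 and 19.8 CPM in siNC and 22.9, 21.4 and 23.1 CPM in siTRIM28, and the groups overlapped narrowly at siNC replicate 1 and siTRIM28 replicate 2. Its log2 fold change was 0.17 (95% interval 0.01 to 0.34) and did not pass in edgeR (adjusted p = 0.0780), although upper-quartile scaling put it past the threshold (adjusted p = 0.0421). The log2 ratio of SLC7A5 over SLC7A6 per library was 0.25 ± 0.191 in siNC and -1.21 ± 0.312 in siTRIM28 (SD, n = 3 each). This difference of -1.46 gave p = 0.1 in the exact two-sided permutation test, or 0.3 after Benjamini-Hochberg adjustment over the 3 pairs compared.

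SLC3A2, the heavy chain (CD98), is not among the 10 genes but is the partner of both light chains. It stood at 41.2, 41.2 and 39.4 CPM in siNC and at 72.1, 47.7 and 49.7 CPM in siTRIM28. All siTRIM28 libraries were above all siNC libraries, and siTRIM28 replicate 1 stood apart from the other two. SLC3A2 rose by 0.48 on the log2 scale (SE 0.129, edgeR adjusted p = 0.0103). Without siTRIM28 replicate 1 the log2 fold change was 0.26 (adjusted p = 0.00149). The log2 ratio of SLC3A2 over SLC7A5 went from 0.78 ± 0.134 to 2.51 ± 0.0232, a difference of 1.73 with p = 0.1 in the exact two-sided permutation test. This pair was added after its values were seen. SLC7A11, the cystine and glutamate exchanger that also pairs with SLC3A2, averaged 2.64 CPM in siNC and 3.26 CPM in siTRIM28 (log2 fold change 0.30, adjusted p = 0.233).

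ATF4, which drives carrier genes when amino acids are short, stood at 189, 187 and 177 CPM in siNC and 303, 280 and 276 CPM in siTRIM28, and rose by 0.64 on the log2 scale (edgeR adjusted p = 1.10e-06). MYC, a known activator of SLC7A5 and SLC1A5, stood at 107, 108 and 118 CPM in siNC and 62.3, 63.8 and 64.0 CPM in siTRIM28, with a log2 fold change of -0.81 (adjusted p = 3.79e-07). Both changes are those of mRNA, and whether either has a part in the values of the carriers was not tested.

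**Figure D3:**
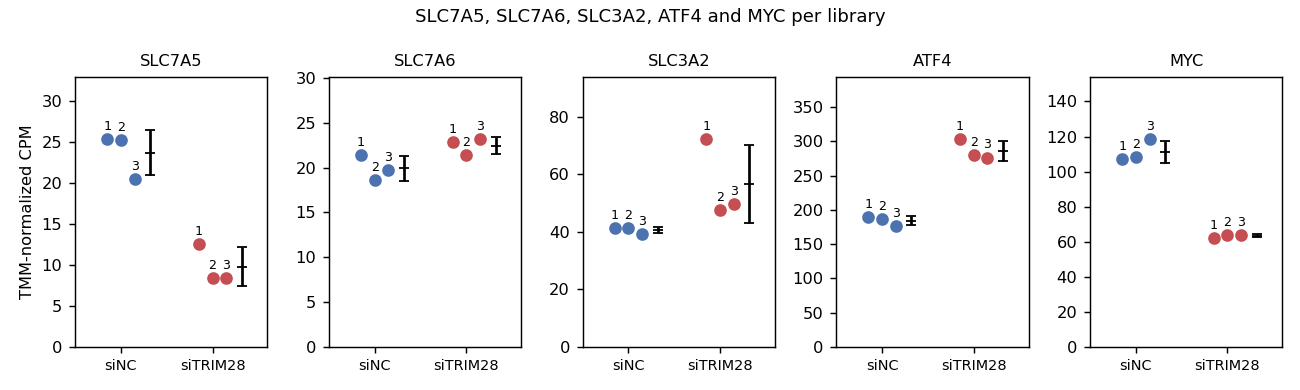
TMM-normalized CPM of SLC7A5, SLC7A6, SLC3A2, ATF4 and MYC in each library, numbered by replicate, with bars for the mean and SD of each group (n = 3). SLC7A5 and MYC are lower and SLC3A2 and ATF4 higher in all 3 siTRIM28 libraries, while SLC7A6 overlaps between the groups.

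The sodium-coupled carriers of system A had small differences. SLC38A1 (SNAT1, ENSG00000111371, chr12:46183063-46270017, minus strand) brings in glutamine and other small neutral amino acids. It stood at 63.6, 64.1 and 67.7 CPM in siNC and at 52.4, 53.9 and 54.6 CPM in siTRIM28, with no overlap. SLC38A1 fell by 0.28 on the log2 scale (SE 0.0543, 95% interval -0.40 to -0.16, edgeR adjusted p = 0.00146), which is 0.823 times the siNC level.

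SLC38A2 (SNAT2, ENSG00000134294, chr12:46358188-46372771, minus strand), a system A carrier whose gene is known to be induced by amino acid shortage, was the highest of the 10. It stood at 168, 175 and 164 CPM in siNC and at 142, 156 and 156 CPM in siTRIM28, again with no overlap. SLC38A2 fell by 0.16 on the log2 scale (SE 0.0488, 95% interval -0.27 to -0.05), or to 0.896 times the siNC level, with an edgeR adjusted p of 0.0210. The call was lost with DESeq2 (adjusted p = 0.0635), with upper-quartile scaling (0.0624), without siNC replicate 1 (0.0637), without siNC replicate 2 (0.107) and with each close pair of libraries summed (0.0703).

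The log2 ratio of SLC38A1 over SLC38A2 was -1.37 ± 0.0884 in siNC and -1.49 ± 0.0485 in siTRIM28, a difference of -0.12 (exact two-sided permutation p = 0.2, 0.3 after adjustment) that was -0.07 without siNC replicate 3. SLC38A5 (SNAT5, ENSG00000017483, chrX:48458537-48470243, minus strand), a system N carrier of glutamine and glycine, was read with 1, 2 and 1 counts in siNC and 2, 1 and 0 in siTRIM28. Both groups were under the limit that a count of 0 allows (3 counts, or 0.214 to 0.253 CPM, counting error only), and no difference was detectable at this depth.

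Of the ASC carriers, SLC1A5 (ASCT2, ENSG00000105281, chr19:46774883-46788594, minus strand), a glutamine exchanger of proliferating cells, stood at 57.1, 53.7 and 52.6 CPM in siNC and 46.1, 48.8 and 44.6 CPM in siTRIM28. The groups did not overlap, and the gap between the lowest siNC and the highest siTRIM28 library was smaller than the range within siNC. SLC1A5 fell by 0.23 on the log2 scale (SE 0.0616, 95% interval -0.36 to -0.09, edgeR adjusted p = 0.0106), or to 0.853 times the siNC level, and without siNC replicate 1 the adjusted p was 0.0514.

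SLC1A4 (ASCT1, ENSG00000115902, chr2:64988477-65021394, plus strand), which carries alanine, serine and cysteine, had 10, 12 and 12 counts in siNC and 10, 11 and 17 counts in siTRIM28. The groups overlapped, and the 95% interval of the log2 fold change, -0.46 to 0.99 around 0.26, is wide at this depth (edgeR adjusted p = 0.558). The log2 ratio of SLC1A4 over SLC1A5 differed by 0.43 between the groups (exact two-sided permutation p = 0.3, also 0.3 after adjustment). Leaving out 1 library moved it to between 0.17 (without siTRIM28 replicate 3) and 0.63 (without siTRIM28 replicate 1).

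SLC1A3 (EAAT1, ENSG00000079215, chr5:36596588-36688331, plus strand) takes up glutamate and aspartate against their gradient and is best known from glia. It stood at 27.9, 28.1 and 26.0 CPM in siNC and 35.0, 35.6 and 41.0 CPM in siTRIM28, so every siTRIM28 library was above every siNC library. SLC1A3 rose from 27.4 ± 1.15 to 37.2 ± 3.32 CPM, by 0.44 on the log2 scale (SE 0.0753, 95% interval 0.28 to 0.61, edgeR adjusted p = 0.000597), which is 1.36 times the siNC level. It was the only 1 of the 9 that passed in this direction.

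SLC7A1 (CAT1, ENSG00000139514, chr13:29509414-29595688, minus strand), the system y+ carrier of arginine and lysine, stood at 26.1, 29.6 and 26.7 CPM in siNC and 28.1, 25.8 and 27.2 CPM in siTRIM28. The groups overlapped, and its log2 fold change of -0.02 had a 95% interval from -0.18 to 0.13 (edgeR adjusted p = 0.829).

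SLC6A9 (GLYT1, ENSG00000196517, chr1:43991500-44031360, minus strand) is a sodium- and chloride-coupled glycine carrier. It had the largest positive estimate of the 9, at 2.74, 3.25 and 2.43 CPM in siNC and 4.57, 3.97 and 3.12 CPM in siTRIM28. Replicate 3 of siTRIM28 lay within the siNC range. The log2 fold change of 0.48 (SE 0.195, 95% interval 0.05 to 0.90) did not pass in edgeR (adjusted p = 0.0709), and it passed without siTRIM28 replicate 3 (0.60, adjusted p = 0.0347).

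Summed over the 10 genes, the level was 61.8 ± 1.69 RPKM in siNC (59.8 to 62.9) and 53.6 ± 0.826 RPKM in siTRIM28 (52.7 to 54.4), with p = 0.1 in the exact two-sided permutation test. System A and N carriers made up 52.6 ± 1.10% of it in siNC and 53.4 ± 1.71% in siTRIM28 (p = 0.5, exact permutation), and ASC carriers 26.4 ± 0.853% and 26.0 ± 0.926% (p = 0.7, exact permutation). The share of the light chains SLC7A5 and SLC7A6 went from 12.3 ± 0.724% to 9.36 ± 1.20%, a difference of -2.92 percentage points. The shares of SLC1A3 (2.09 ± 0.0313% to 3.27 ± 0.287%), SLC7A1 (5.79 ± 0.345% to 6.57 ± 0.380%) and SLC6A9 (0.864 ± 0.108% to 1.38 ± 0.271%) went the other way. Shares sum to the whole, and the level of SLC7A1 itself was 3.58 RPKM in siNC and 3.52 RPKM in siTRIM28, a log2 fold change of -0.02 that did not pass. Some of these differences depend on the length used: that of the SLC1A3 share, 1.19 percentage points, was 3.54 with counts not divided by length and 4.06 with GENCODE lengths, and that of the system A and N share, 0.795 points, turned to -1.86 and -1.32. For the shares of the light chains, SLC1A3, SLC7A1 and SLC6A9 the groups did not overlap, with an exact two-sided permutation p of 0.1 each and 0.15 after Benjamini-Hochberg adjustment over the 6 shares.

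**Figure D4:**
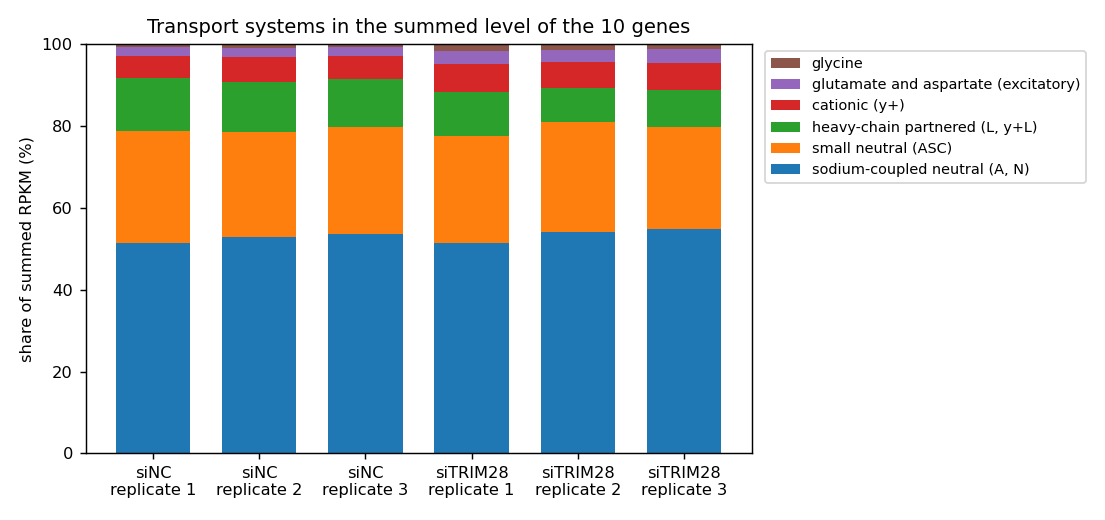
Share of each transport system in the summed RPKM of the 10 genes (y axis, percent) in each of the 6 libraries, as stacked bars. System A and N carriers take 51.4 to 54.7% in every library, and the segment of the heavy-chain partnered carriers is 11.5 to 13.0% in siNC and 8.40 to 10.7% in siTRIM28.

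Several of the genes overlap others on the opposite strand. The kit marks strand, but the strand setting of the counting is not given in the sources used here, so reads of the partners may not be told apart. SLC6A9 overlaps CCDC24, which rose by 0.51 on the log2 scale (edgeR adjusted p = 0.00195), and ENSG00000230615 (-0.14, adjusted p = 0.116). SLC1A5 overlaps ENSG00000275719, which fell by 0.49 (adjusted p = 0.00579). The partners of SLC7A6 (SLC7A6OS, 0.17, adjusted p = 0.103), SLC38A2 (SLC38A2-AS1, -0.15, adjusted p = 0.315) and SLC1A3 (ENSG00000297790, 0.29, adjusted p = 0.224) did not pass. Overlapping genes with a mean under 50 counts were SLC1A3-AS1, ENSG00000274441, LINC02245, RNU6-548P, ENSG00000260466, ENSG00000300742, MIR6775, ENSG00000305326, ENSG00000279649, RNU6-1262P, ENSG00000274591 and ENSG00000304381. SLC7A5 overlapped only such genes, with at most 4 counts in any library, and SLC7A1 and SLC38A5 overlapped none.

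Because ATF4 and MYC differed between the groups, the promoters of the 10 genes were searched for the letters that these factors are known to bind. RefSeq (GRCh38.p14) gives 16 promoter windows for them, each from 250 bases before to 50 bases after a start, and the search was chosen after the values above were seen. The C/EBP-ATF response element, TGATGNAA on either strand, is present in a window of 5 of the 10 genes, against 4.46% of the 27305 genes with a window and 2.74% of the 11033 of them that were tested. By window this is 5 of 16 against 3.62% of all windows. Several ATF motifs were looked at, and only the widest is reported. The members were chosen with earlier results of these data known, and no excess over the background is read from these counts. The 5 matches are shown in capitals, read along the strand of the gene, so that the letters can be compared among the genes.
SLC1A3, chr5:36596357-36596386, plus strand: caggaaatgacTGATGCAAagcagggttaa
SLC1A5, chr19:46784893-46784922, minus strand: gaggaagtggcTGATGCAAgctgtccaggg
SLC1A4, chr2:64989381-64989410, plus strand: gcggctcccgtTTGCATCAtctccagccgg
SLC38A1, chr12:46266502-46266531, minus strand: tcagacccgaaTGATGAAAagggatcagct
SLC7A1, chr13:29595663-29595692, minus strand: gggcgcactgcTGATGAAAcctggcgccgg

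The match of SLC1A4 is on the strand opposite to the gene. The E-box CACGTG, a palindrome bound by MYC and related factors, is in a window of 3 of the 10 genes, against 8.77% of all genes with a window and 12.3% of those tested. No excess is read from this count either. The 3 matches are shown in capitals. The other members have no such match in their windows, and whether either motif has a part in the changes was not tested.
SLC7A5, chr16:87869621-87869648, minus strand: gccggacgacgCACGTGctccgagctgg
SLC1A5, chr19:46787327-46787354, minus strand: gcgggagtggtCACGTGgacaggacggg
SLC38A5, chrX:48470450-48470477, minus strand: cctgtagcggaCACGTGgcttgcctggg
SLC38A5, the third, had 0 to 2 counts in each library and was not tested. A match is a description of the letters and does not show binding, and no match says only that these letters are not in these windows. The motifs do not overlap each other in any of the windows shown.

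Of 56 further genes for amino acid carriers, 30 were tested, and 8 were higher and 5 lower (43.3% called, median log2 fold change 0.12), near the background of 41.8%. The 199 tested genes with other SLC names had 42 higher and 52 lower (47.2%). Among the 56, carriers of the mitochondrial inner membrane had 5 higher and 1 lower of 10 tested (60% called). The remaining carriers had 3 higher and 4 lower of 20 tested (35% called), and no excess is read from so few genes. SFXN4, a sideroflexin that is not among the 56, had a log2 fold change of -1.35 (edgeR adjusted p = 5.96e-05). SFXN3, a sideroflexin, rose by 1.25 on the log2 scale, from 59.4 ± 2.99 to 142 ± 2.01 CPM (edgeR adjusted p = 1.15e-08), and SFXN1, the mitochondrial serine carrier, from 48.1 ± 4.07 to 89.4 ± 14.5 CPM (0.89, adjusted p = 3.12e-05). SLC25A13, the aspartate and glutamate carrier citrin, rose from 34.4 ± 1.68 to 52.5 ± 2.84 CPM (0.61, adjusted p = 2.02e-05). SLC38A6 rose from 6.24 ± 0.317 to 8.88 ± 2.08 CPM (0.52, adjusted p = 0.0217), a call lost without any 1 of the siNC libraries and, at 0.30, without siTRIM28 replicate 1.

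Of those that were lower, SLC36A1, a proton-coupled carrier of lysosomes and plasma membrane, fell from 7.12 ± 0.485 to 4.21 ± 0.838 CPM (-0.76, adjusted p = 0.00224). SLC25A15, the mitochondrial ornithine carrier, fell from 16.4 ± 0.279 to 11.2 ± 0.0894 CPM (-0.54, adjusted p = 9.29e-05), and SLC15A4, a lysosomal carrier of histidine and small peptides, from 7.95 ± 0.709 to 5.61 ± 0.264 CPM (-0.50, adjusted p = 0.00692). The carriers thus differed in both directions in organelles as well as at the cell surface.

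Genes of the routes around amino acid sensing were counted from lists chosen, like those above, with earlier results of these data known. The first list holds kinases, transcription factors and stress genes, and not only amino acid sensors, so its counts do not measure amino acid sensing. Of 20 genes of the eIF2 kinases and the ATF4 route, 19 were tested, and 13 were higher and 3 lower (84.2% called, median 0.37), against 41.8% of all genes. PPP1R15A (GADD34), which restores translation after eIF2 phosphorylation, rose from 132 ± 1.26 to 264 ± 12.2 CPM (1.00), and DDIT3 (CHOP) from 30.0 ± 2.72 to 56.5 ± 5.26 CPM (0.91). EIF2AK4 itself fell from 106 ± 0.782 to 54.6 ± 1.82 CPM (-0.96, edgeR adjusted p = 6.21e-08). Named after their values were seen, the others called lower were EIF2AK1 (-0.33, adjusted p = 0.000731) and ATF3 (-0.52, adjusted p = 0.0186). Those that did not pass, named likewise, were ATF5 (-0.26), TRIB3 (-0.24) and EIF2AK3 (0.02).

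Of 25 genes of mTORC1 amino acid sensing, 24 were tested, and 8 were higher and 6 lower (58.3% called, against 41.8% of all genes, median 0.01). Ragulator holds the Rag GTPases on the lysosome, and its subunits LAMTOR5 and LAMTOR2 fell from 29.2 ± 2.45 to 9.49 ± 0.527 CPM (-1.62) and from 24.9 ± 0.542 to 12.8 ± 0.975 CPM (-0.96). RRAGD, a Rag GTPase, rose from 19.1 ± 2.00 to 36.1 ± 1.02 CPM (0.91).

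Of 16 genes for the enzymes that use glutamine, glutamate and proline, 13 were tested, and 4 were higher and 4 lower (61.5% called, against 41.8% of all genes, median -0.11). GOT2, the mitochondrial aspartate aminotransferase, fell from 54.3 ± 1.46 to 20.3 ± 1.57 CPM (-1.42, edgeR adjusted p = 4.23e-08). PYCR1, which makes proline, fell by 0.52.

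**Figure D5:**
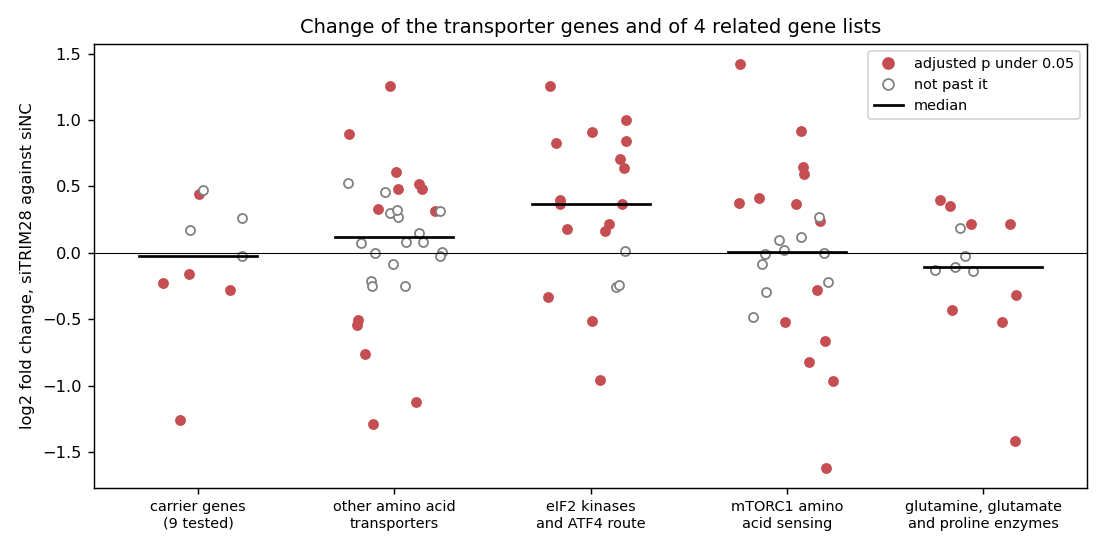
Log2 fold change of every tested gene in siTRIM28 against siNC (y axis) for the 9 tested carrier genes described here and 4 related lists, filled where the adjusted p was under 0.05, with the median of each list as a line. The eIF2 kinase and ATF4 list has its median at 0.37, while the medians of the other 4 lie between -0.11 and 0.12.

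The genes whose pattern over the 6 libraries was most like that of SLC7A5, the gene with the largest fall, were found among 12828 genes with a mean of at least 50 counts, by the root mean square distance in log2 CPM from the siNC mean. ENSG00000310260 was nearest at 0.0702, followed by SFXN4 at 0.121, itself a sideroflexin, and JPT2 at 0.127. For SLC6A9, the gene with the largest positive estimate, the nearest were ENSG00000288891 at 0.0542, ZDHHC13 at 0.0858 and GRAMD1C at 0.0929. In siTRIM28, SFXN4 stood at 2.57, 2.03 and 1.94 CPM and SLC7A5 at 12.6, 8.36 and 8.45 CPM, with replicate 1 the highest for both. SFXN4 was picked by this likeness, so the shared high replicate follows from the choice and is no separate result.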

How the data were processed

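RNA-seq of 6 T24 libraries was analysed from the table of raw read counts per gene that the authors deposited. Per the labels, poly(A) RNA was made into stranded libraries, and the submitters' processing notes name fastp 0.23.1, STAR 2.7.6a, featureCounts and GRCh38. The annotation release and the strand setting are not given in the sources used here. A table of RPKM from the same libraries was not used.

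TMM scaling and the quasi-likelihood test of edgeR 4.0.16 (R 4.3.3) were applied in 1 fit of siTRIM28 against siNC over all 18474 genes with at least 10 counts in 3 libraries, with Benjamini-Hochberg adjustment over them and a threshold of 0.05. The study's methods name no test for the RNA-seq itself and refer to earlier work. Their general rule for a pair of groups, rank or Welch tests with Benjamini-Hochberg adjustment, was not used. RPKM here is TMM-scaled CPM per kilobase of the length in the table. Single ratios and shares were compared by exact two-sided permutation, which cannot go below 0.1 with 3 against 3. P-values measure the spread between these libraries, and intervals cover 95%. On simulated counts with 200 genes changed by 0.8 on the log2 scale, the fit called 144 (127 of the 129 with a mean of at least 50 counts) and 4 unchanged genes. The simulation used the same dispersion for every gene, no close pairs of libraries and far fewer changed genes than were called here. Its rates therefore check the fit and need not hold for these data.

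The members, the lists and the tests were chosen with earlier results of these data known. Named beside the 10 genes are TRIM28, SLC3A2, SLC7A11, ATF4, MYC, the genes that overlap a member, the copies of SLC7A5, the 3 nearest patterns and, of the other carriers, up to 4 in each direction (up to 3 in all for each other list) with the largest change among those called whose groups did not overlap and whose mean was 50 counts or more. Some genes that the rule names are not reported here. Promoter sequences are those of RefSeq (GRCh38.p14), and all 10 genes matched by symbol. Of several ATF motifs looked at, the widest is reported. No siRNA or protein sequence was used. Alternatives were other scalings (RLE, upper quartile, none), DESeq2 1.42.0, limma-voom 3.58.1, other filters, other thresholds, a replicate block, each library left out and close pairs summed.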

Additional observations from a re-analysis of the deposited data

How the results depend on the processing

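SLC7A5, SLC38A1 and SLC1A3 kept their direction and their call under every scaling, tool, filter and left-out library run and at an adjusted p under 0.01, and SLC7A5 alone kept its call with a log2 change of at least 0.58 required as well. Of the 10 genes, 5 were called, and 3 at an adjusted p under 0.01, 1 with the limit of 0.58, and 3 to 6 with 1 library left out. The 3 were found without siNC replicate 1, where SLC1A5 and SLC38A2 were lost. With the 0.58 limit, 3144 genes were called over all genes (7723 without it) and 6 other carriers (13 without it). SLC1A4 and SLC7A1, neither of them called, changed sign. SLC1A4 ran from -0.0532 to 0.49 and SLC7A1 from -0.0671 to 0.0328 with 1 library left out, and upper-quartile scaling gave SLC7A1 0.0119. The difference in the glutamate and aspartate share was 1.19 percentage points, 3.54 with counts not divided by length and 4.06 with GENCODE lengths, the latter chosen after seeing the data. The share of system A and N was 0.795 points higher in siTRIM28, and the same settings turned it to -1.86 and -1.32, and the cause was not tested. That of ASC was -0.363 points, and -0.798 to 0.123 with 1 library left out. The labels number the replicates 1 to 3 in both groups, and same-numbered libraries had correlations of 0.0658, -0.0242 and 0.0506. Replicates 1 and 3 of siNC correlated best with their own number, and siNC replicate 2 with siTRIM28 replicate 1 (0.0417). With 3 libraries per group and a close pair in each, these values cannot show whether the numbers pair the libraries. A replicate block called 7910 genes over all, and 5 of the 10. Depth limits SLC38A5, SLC1A4 and SLC6A9.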

Other observations

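Outside the genes named above, SLC38A7 (log2 fold change -1.29, edgeR adjusted p = 0.000422) and SLC43A2 (-1.12, adjusted p = 0.0102) were the other carriers that fell, both with a mean under 50 counts. CASTOR1, the arginine sensor of mTORC1, rose by 1.42 (adjusted p = 0.00111), and TSC2, which restrains mTORC1, fell by 0.82 (adjusted p = 7.07e-06). NUPR1, a stress-induced regulator, rose by 1.26 (adjusted p = 0.00103). These genes were named after their values were seen.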
